A study of Homo sapiens with 4 samples.

Results

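Linker histones of the H1 family bind the nucleosome where DNA enters and leaves it and hold neighbouring nucleosomes together in compact chromatin. The genes named HIST1H1 lie in the large histone gene cluster, are transcribed mainly in S phase, and give mRNAs that usually end in a stem-loop and carry no poly(A) tail. Replacement linker histones such as H1FX have genes outside that cluster, give polyadenylated mRNAs and can be made outside S phase. Linker histone genes were taken by name, 7 of the 23004 gene names in the files, and 6 of them are described here: the 5 replication-dependent members HIST1H1A, HIST1H1B, HIST1H1C, HIST1H1D and HIST1H1E and the replacement member H1FX.

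The cells were BEAS-2B, an immortalized human line from lung that is widely used as a model of bronchial epithelium. One group was exposed to 100 µM formaldehyde, a small aldehyde that crosslinks protein and DNA, for 48 h, and the other was left untreated. Each group held 2 libraries of total RNA, and the labels do not say whether these came from separate cultures, so any p-value here reflects library-to-library spread that could be purely technical. The title of the study concerns chromatin assembly and cell transformation, and the comparison asks how transcript levels differ after exposure. Values are FPKM, fragments scaled to transcript length and library size, which can be compared between genes of different length. The depth recovered from the files was 14.2 and 22.2 M fragments with formaldehyde, against 16.8 and 26.5 M fragments untreated. In bulk RNA, fewer cells that make a transcript and less of it per cell cannot be told apart.

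The line was checked against its labels with marker genes. Of 7 epithelial markers, KRT7, KRT8 and KRT18, keratins of simple epithelium, stood between 140 and 531 FPKM, while KRT5 was listed at 0 and KRT19, EPCAM and CDH1 stayed under 4 FPKM in every library. Of 5 mesenchymal markers 4 were tested, 1 higher and 3 lower with formaldehyde, with a median log2 fold change of -0.51 and 0 past limma or at an unadjusted p under 0.05. VIM, the intermediate filament of mesenchymal cells, stood between 642 and 1043 FPKM, and the collagen gene COL1A1 was at 137 and 254 FPKM with formaldehyde, against 279 and 568 FPKM untreated, while COL3A1 was at or near 0. The 6 leukocyte markers summed to 8.87 and 10.6 FPKM with formaldehyde, against 5.59 and 14.8 FPKM untreated, with the defining markers PTPRC and CD3E at or near 0. CD14 stood at 1.77 and 6.23 FPKM with formaldehyde, against 3.75 and 12.0 FPKM untreated (log2 fold change -0.81). CORO1A, an actin-binding protein, went the other way, at 4.75 and 4.02 FPKM, against 1.53 and 2.69 FPKM (log2 fold change 0.81). The 3 endothelial markers summed to under 0.2 FPKM. The 7 epithelial markers summed to 1339 and 1156 FPKM with formaldehyde, against 709 and 641 FPKM untreated, and the part of these marker differences in the histone results was not tested.

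The promoters of the linker histone genes show the family's layout. RefSeq promoter sequences (GRCh38.p14) matched all 6 genes described, and the 250 bases before the transcription start are printed for 4 of them: HIST1H1C, the most abundant replication-dependent member here; HIST1H1B, which has a like layout and a low level; HIST1H1A, listed at 0; and the replacement gene H1FX. They lie on the minus strand at chr6:26056471-26056720, chr6:27867589-27867838, chr6:26017788-26018037 and chr3:129316287-129316536. Capitals mark AAACACA, the H1 box of linker histone promoters, CCAAT, and TATAAA, each searched on both strands, and no marked motif overlaps another.
HIST1H1C: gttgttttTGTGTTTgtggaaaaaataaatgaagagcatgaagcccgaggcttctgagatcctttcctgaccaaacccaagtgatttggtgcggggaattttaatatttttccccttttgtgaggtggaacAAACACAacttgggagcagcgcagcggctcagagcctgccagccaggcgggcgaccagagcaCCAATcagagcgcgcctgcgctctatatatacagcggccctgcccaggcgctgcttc
HIST1H1B: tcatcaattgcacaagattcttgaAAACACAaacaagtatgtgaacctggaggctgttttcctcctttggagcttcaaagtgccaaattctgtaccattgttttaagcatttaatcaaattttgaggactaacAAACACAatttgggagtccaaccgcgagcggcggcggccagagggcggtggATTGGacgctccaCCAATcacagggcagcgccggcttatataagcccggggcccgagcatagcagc
HIST1H1A: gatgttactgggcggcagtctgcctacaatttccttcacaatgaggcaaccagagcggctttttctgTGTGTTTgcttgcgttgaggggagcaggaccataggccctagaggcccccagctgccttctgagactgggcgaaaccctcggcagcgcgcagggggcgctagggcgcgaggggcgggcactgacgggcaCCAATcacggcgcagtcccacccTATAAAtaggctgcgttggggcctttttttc
H1FX: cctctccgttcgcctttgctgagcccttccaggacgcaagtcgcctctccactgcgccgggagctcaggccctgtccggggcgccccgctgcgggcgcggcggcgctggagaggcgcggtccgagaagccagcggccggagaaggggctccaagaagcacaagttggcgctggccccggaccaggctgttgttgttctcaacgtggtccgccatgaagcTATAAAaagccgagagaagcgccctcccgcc

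The H1 box letters were found in 5 of the 6 promoters, against 4.95% of 27305 promoters of the same length, 1 per gene. CCAAT was found in 5 of 6, against 33.0%, and TATAAA in 4 of 6, against 11.1%. HIST1H1B, HIST1H1C, HIST1H1D and HIST1H1E shared one arrangement, with the H1 box starting 117 to 119 bases and CCAAT 53 to 57 bases before the transcription start. In HIST1H1A the H1 box letters stood on the opposite strand, farther away, at 183 to 177 bases before the start, with CCAAT at 54. H1FX held TATAAA at 31 bases before the start and neither of the other motifs. A match is a description of letters and not a measured binding site.

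Transcript levels were far apart within this shared layout. HIST1H1C (chromosome 6, hg19, 26055968 to 26056699, 1 exon of 732 nt) encodes one of the main linker histones of dividing cells. It stood at 19.2 and 17.9 FPKM with formaldehyde, against 38.4 and 26.8 FPKM untreated. Neither formaldehyde library reached the lower untreated one, and the formaldehyde pair was close together while the untreated pair was spread. These levels rested on 144 and 210 fragments with formaldehyde, against 341 and 374 fragments untreated. The exact Poisson 95% intervals, which cover counting error only, were 16.2 to 22.6 and 15.6 to 20.5 FPKM with formaldehyde, against 34.5 to 42.7 and 24.1 to 29.6 FPKM untreated. No interval of a formaldehyde library reached one of an untreated library, and the 2 untreated libraries also differed beyond counting error.

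HIST1H1C averaged 18.5 ± 0.897 FPKM with formaldehyde and 32.6 ± 8.26 FPKM untreated (mean ± SD, n = 2 each), a ratio of 0.569. Its log2 fold change on log2(FPKM + 1) was -0.76 ± 0.25 (SE), with an unadjusted p of 0.0274 and a limma adjusted p = 0.9999 over the 12407 genes tested, so it did not pass the threshold of 0.05. Leaving out untreated replicate 2 gave -1.01 and leaving out untreated replicate 1 gave -0.51, the ends of the range over the 4 such fits. In 3 of these 4, without untreated replicate 1 or either formaldehyde library, the unadjusted p was no longer under 0.05. Of the 12407 genes, 0.153% passed in either direction by limma, 0.0806% higher and 0.0725% lower with formaldehyde, and 2.76% had an unadjusted p under 0.05. Groups that lay apart with formaldehyde lower made up 10.7% of the genes tested. After rescaling the libraries to equal FPKM sums that share was 14.6%, with 12.2% apart and higher, against 16.2% higher without rescaling.

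**Figure D1:**
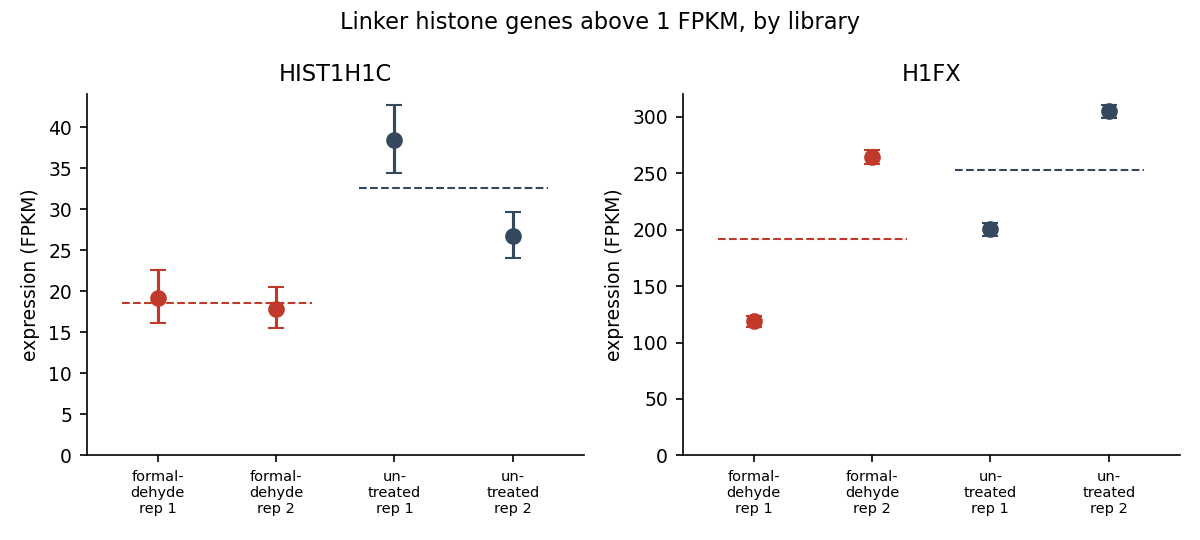
Expression in FPKM (vertical axes, linear from 0) of HIST1H1C and H1FX in each of the 4 libraries, formaldehyde in red and untreated in dark blue, with exact Poisson 95% intervals and dashed lines at the group means. HIST1H1C lies at 19.2 and 17.9 FPKM with formaldehyde, below 38.4 and 26.8 FPKM untreated, while for H1FX the groups overlap and replicate 2 lies above replicate 1 in both groups.

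The other 4 replication-dependent genes were near the detection limit. All lie on chromosome 6 (hg19) as single exons of 777 to 790 nt: HIST1H1A at 26017260 to 26018040, HIST1H1B at 27834570 to 27835359, HIST1H1D at 26234440 to 26235216 and HIST1H1E at 26156559 to 26157343. Each had a mean under 1 FPKM over the 4 libraries, and none of these 4 entered the test. HIST1H1E, a main linker histone of many dividing cells, stood at 0.363 and 0.697 FPKM with formaldehyde, against 0.512 and 0.455 FPKM untreated. The fragments behind these values were 3 and 9 with formaldehyde, against 5 and 7 untreated, and the groups overlapped.

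HIST1H1B, a linker histone tied to proliferating cells, had 3 and 4 fragments with formaldehyde, against 8 and 6 untreated, or 0.36 and 0.307 FPKM against 0.812 and 0.387 FPKM. HIST1H1D had 0 and 1 fragments with formaldehyde, against 1 and 3 untreated, or 0 and 0.0785 FPKM against 0.104 and 0.198 FPKM. In FPKM both genes were lower in both formaldehyde libraries, but the exact Poisson 95% intervals of the groups overlapped for each. Such overlap is not itself a test of a difference, and these few fragments were not compared by one. Among 5910 genes above 0 with a mean under 1 FPKM, 14.2% had groups apart in that direction.

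HIST1H1A, a linker histone known for a restricted pattern of expression, had 0 fragments in every library. A count of 0 was given a floor of 3 fragments, a little under the upper end of the plotted two-sided exact Poisson 95% interval at 3.69 fragments, and for a transcript of nearly this length that floor came to 0.363 and 0.232 FPKM with formaldehyde, against 0.307 and 0.195 FPKM untreated. The 4 linker histones of the germ line, HIST1H1T, H1FOO, H1FNT and HILS1, were likewise listed at 0 or close to it, with sums of 0.0832 and 0.0821 FPKM with formaldehyde, against 0.0704 and 0.285 FPKM untreated. HIST1H1C thus carried 96.4% and 94.3% of the summed replication-dependent FPKM with formaldehyde, against 96.4% and 96.3% untreated.

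**Figure D2:**
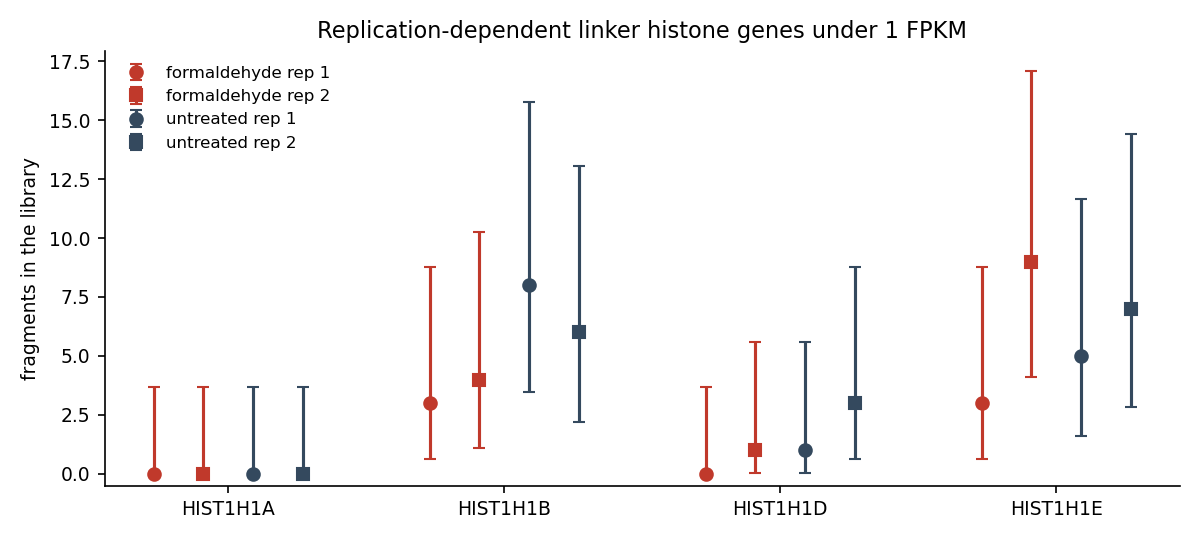
Fragments counted (vertical axis, linear) for HIST1H1A, HIST1H1B, HIST1H1D and HIST1H1E in each library, formaldehyde in red and untreated in dark blue, circles for replicate 1 and squares for replicate 2, with exact Poisson 95% intervals. No library holds more than 9 fragments of any of these genes, and the intervals of the groups overlap throughout.

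Exact matches between genes at the read length were sought in the annotated transcripts, which for the HIST1H1 genes hold mostly coding sequence. The 5 HIST1H1 coding sequences were 70.0% to 80.9% identical in pairs (GENCODE 29, aligned bases), HIST1H1C and HIST1H1E being the closest pair. Of the 592 windows of 51 nt in the HIST1H1C coding transcript, 51 nt being the read length recovered from the files, 0 occurred in a transcript of another gene. The same count was 0 for HIST1H1A, HIST1H1B, HIST1H1D and HIST1H1E. For H1FX, 249 of 1457 windows (17.1%) occurred in its antisense neighbour H1FX-AS1 in that annotation.

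The selection of RNA in the library preparation is not given in the sources used here, and it bears on mRNAs without a poly(A) tail. Of 18 listed RNAs of that kind outside the histones, such as the RNA of RNase MRP (RMRP), 13 were in the files, and their sum was 375 and 118 FPKM with formaldehyde, against 350 and 153 FPKM untreated. The sum was thus higher in replicate 1 than in replicate 2 of both groups. Not every RNA shared this order, and RNAs such as RNU11 in the untreated pair and TERC in both pairs had the opposite one. Of the 6 that were tested, 1 was at least 300 nt long. RNU12 alone stood at 65.8 and 0 FPKM with formaldehyde, so the sum is a rough gauge of a library. The replication-dependent linker sum was 19.9 and 19.0 FPKM with formaldehyde, against 39.9 and 27.8 FPKM untreated. It was higher in replicate 1 of the untreated group and within counting error between the formaldehyde replicates. The replication-dependent core histone sum had the same order as the sum of the listed RNAs in both groups, at 124 and 84.8 FPKM with formaldehyde, against 168 and 115 FPKM untreated. What part the selection of RNA had in the levels of the HIST1H1 genes was not tested.

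H1FX (chromosome 3, hg19, 129033614 to 129035120, 1 exon of 1507 nt), a divergent replacement linker histone, stood at 119 and 264 FPKM with formaldehyde, against 200.3 and 305 FPKM untreated. The groups overlapped, with formaldehyde replicate 2 above untreated replicate 1. H1FX averaged 192 ± 103 FPKM with formaldehyde and 253 ± 74.0 FPKM untreated (mean ± SD, n = 2 each), and its log2 fold change was -0.48 with an SE of 0.46 (limma adjusted p = 0.9999). Its sign turned without formaldehyde replicate 1 (0.10). The antisense gene H1FX-AS1 (chromosome 3, hg19, 129035114 to 129043412), which overlaps H1FX by 7 nt in the files, stood at 1.55 and 2.79 FPKM with formaldehyde, against 3.49 and 5.39 FPKM untreated. Its formaldehyde libraries lay below its untreated ones (log2 fold change -0.78 ± 0.32, limma adjusted p = 0.9999). Since no strand setting is given, reads of the overlap cannot be assigned to either gene, though H1FX exceeded its antisense neighbour 76.5 and 94.6 times with formaldehyde, against 57.5 and 56.6 times untreated.

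For H1FX the ratio between replicates was larger than that between the group means. H1FX was 2.22 times higher in replicate 2 than in replicate 1 with formaldehyde, and 1.52 times higher untreated. Of the 12407 genes tested, 29.3% were higher in replicate 2 in both groups and 5.46% were at least 1.5 times higher in both. HIST1H1C did not share this order, with replicate 2 at 0.934 times replicate 1 with formaldehyde and 0.696 times untreated. The replicate 2 libraries were also the deeper ones of each group and those with the lower sum of RNAs without a poly(A) tail, and the part of either in the level of H1FX was not tested.

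In every library H1FX had the highest level of the 6 genes, then HIST1H1C, then the other HIST1H1 genes. The part that the selection of RNA had in this order was not tested. H1FX exceeded HIST1H1C 6.20 and 14.8 times with formaldehyde, against 5.21 and 11.4 times untreated. H1FX stood at the 95.4 and 98.2 percentile of genes above 0 with formaldehyde, against the 97.6 and 98.7 percentile untreated. HIST1H1C stood at the 74.0 and 72.8 percentile with formaldehyde, against the 85.7 and 81.9 percentile untreated. The exact Poisson 95% intervals of HIST1H1B, HIST1H1D and HIST1H1E overlapped in every library.

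Of the 6 genes described, 2 passed the filter of a mean of at least 1 FPKM, and 0 of these passed the limma test, with 1, HIST1H1C, at an unadjusted p under 0.05. Both had log2 fold changes below 0, with a median of -0.62, beside a median of 0.03 and 44.9% below 0 over all genes tested. Without formaldehyde replicate 1, H1FX was above 0 and the median was -0.36.

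**Figure D3:**
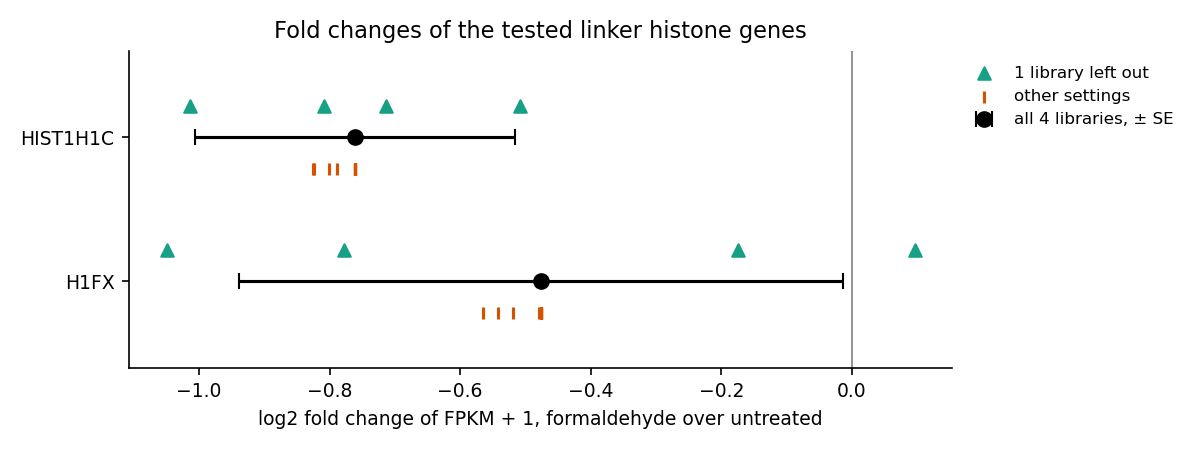
Log2 fold change of FPKM + 1, formaldehyde over untreated (horizontal axis), of HIST1H1C and H1FX, with the estimate from all 4 libraries and its SE in black, the fits with 1 library left out as triangles and other settings as ticks. The values of HIST1H1C lie between -1.01 and -0.51, whereas those of H1FX with a library left out run from -1.05 to 0.10. As the groups of HIST1H1C lie apart, leaving 1 library out could not turn its sign.

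The genes whose levels were most like those of the members over the 4 libraries were sought among 8680 other genes by the distance between centred log2(FPKM + 1) values. The 3 nearest to the summed HIST1H1 genes were FSTL1, CYBRD1 and ASPM, at distances of 0.0783, 0.133 and 0.22. For H1FX they were TCEA2, TSPAN15 and BTN3A2, at 0.0621, 0.123 and 0.136. H1FX was 1.21 apart from HIST1H1C and 0.513 apart from H1FX-AS1. With 4 libraries and so many genes, small distances are a description of these libraries.

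Core histones of the replication-dependent class, the spools around which linker histones close the DNA, were mostly lower with formaldehyde. Of 63 gene names of that kind 25 were tested, 23 of them lower and 2 higher, beside 44.9% lower over all genes tested. In 10 the groups lay apart with formaldehyde lower and in 0 with it higher, beside 10.7% and 16.2% of all genes tested. The median log2 fold change was -0.28 and 0 members passed limma, with 2 at an unadjusted p under 0.05. Without untreated replicate 1, 16 were lower and 9 higher (median -0.13), and the same counts came without formaldehyde replicate 2 (median -0.31). Their summed level was 124 and 84.8 FPKM with formaldehyde, against 168 and 115 FPKM untreated, so that the sums overlapped. For each 100 FPKM of core histone mRNA there were 15.5 and 21.1 FPKM of HIST1H1C with formaldehyde, against 22.9 and 23.3 FPKM untreated. HIST1H1C was thus lower also relative to the core genes in both formaldehyde libraries, by a small amount in replicate 2 (exact two-sided permutation p = 0.333, the smallest possible with 2 libraries against 2).

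**Figure D4:**
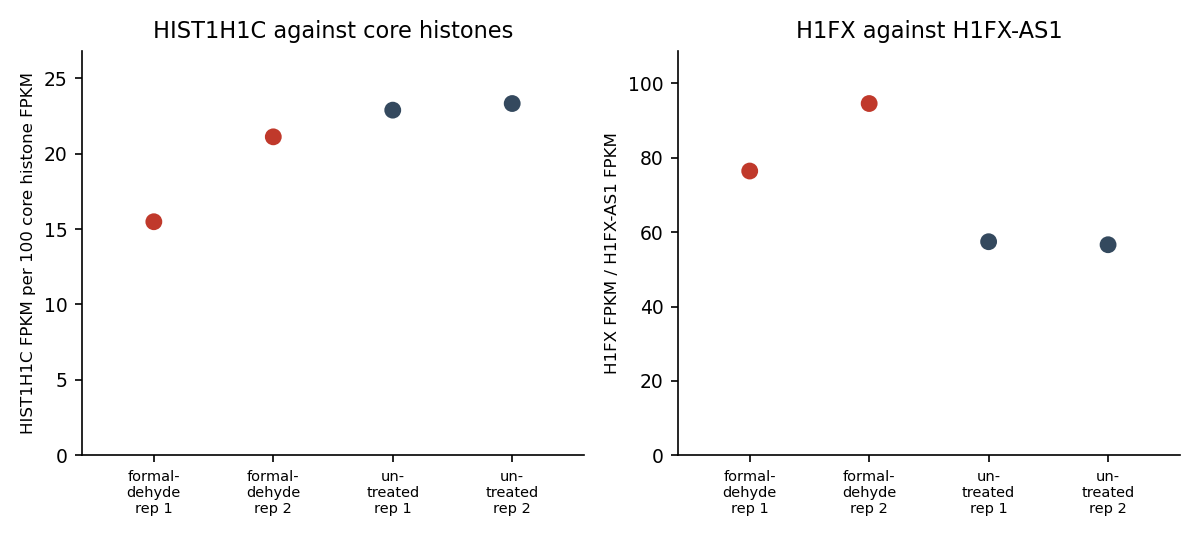
Left, HIST1H1C FPKM per 100 FPKM of replication-dependent core histones, and right, the ratio of H1FX to H1FX-AS1 in FPKM (vertical axes, linear from 0), as 1 point per library, formaldehyde in red and untreated in dark blue. The formaldehyde libraries lie at 15.5 and 21.1, below 22.9 and 23.3 untreated, on the left, and at 76.5 and 94.6, above 57.5 and 56.6 untreated, on the right.

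The genes that switch on histone transcription in S phase were mostly lower with formaldehyde, none past the test. Of 12 tested, 10 were lower and 2 higher (7 and 5 without untreated replicate 1), the median log2 fold change was -0.15 and 0 passed limma, with 0 at an unadjusted p under 0.05. The groups lay apart with formaldehyde lower in 4 of them and with formaldehyde higher in 1, beside 10.7% and 16.2% of all genes tested. NFYB, a subunit of the factor that binds CCAAT, stood at 7.31 and 11.1 FPKM with formaldehyde, against 15.8 and 13.3 FPKM untreated (log2 fold change -0.63). The other listed subunits, NFYA (0.09) and NFYC (-0.00021), did not share this change. CCNE2, the cyclin E that with its kinase activates histone transcription, stood at 10.3 and 7.92 FPKM with exposure, against 15.0 and 10.2 FPKM in untreated cells. CASP8AP2, a component of the nuclear body where histone genes are read, stood at 6.51 and 8.82 FPKM with exposure, against 10.5 and 9.26 FPKM in untreated cells.

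Genes that process or degrade histone mRNA were mostly higher with formaldehyde, none past the test, though not with every library left out. Of 16 tested, 12 were higher and 4 lower, beside 44.9% lower over all genes tested, with a median log2 fold change of 0.08. In 4 the groups lay apart with formaldehyde higher and in 0 with it lower, beside 16.2% and 10.7% of all genes tested. Without untreated replicate 2, 8 were higher and 8 lower (median -0.0063), and 9 were higher and 7 lower without formaldehyde replicate 2 (median 0.04). With all libraries 0 passed limma, with 0 at an unadjusted p under 0.05. LSM10, a subunit of the small nuclear particle that cuts histone mRNA ends, stood at 48.5 and 59.6 FPKM with formaldehyde, against 40.1 and 37.5 FPKM untreated. FIP1L1, a polyadenylation factor, stood at 21.6 and 26.7 FPKM with exposure, against 18.3 and 19.9 FPKM in untreated cells. ZC3H8, counted in the list though not a known factor of histone mRNA processing or decay, stood at 7.98 and 7.91 FPKM, against 6.21 and 4.64 FPKM.

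Of 44 genes of DNA replication and S phase, 39 were lower and 5 higher, beside 44.9% lower over all genes tested. The median log2 fold change was -0.16, with 0 past limma or at an unadjusted p under 0.05. In 8 the groups lay apart with formaldehyde lower and in 0 with it higher, beside 10.7% and 16.2% of all genes tested. Without formaldehyde replicate 1, 25 were lower and 19 higher (median -0.02). Against the untreated mean, the list's median stood at -0.31 in formaldehyde replicate 1 and -0.02 in replicate 2. HIST1H1C stood at -0.71 and -0.81 in the same libraries. The difference between the gene and the list was not tested. The level of RRM2, which encodes part of ribonucleotide reductase, was 57.0 and 62.0 FPKM with exposure, against 77.7 and 68.2 FPKM in untreated cells.

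Linker histones share their sites with high mobility group proteins, which compete with them for DNA, and are carried by chaperones. Of 20 listed genes, all tested, 13 were higher and 7 lower, beside 44.9% lower over all genes tested. The median log2 fold change was 0.06 and 0 passed limma, with 1 at an unadjusted p under 0.05. The list also held PARP1 (0.14) and TAF1A (0.20), which are neither high mobility group proteins nor chaperones and count among the higher genes. The list's median turned to -0.08 without untreated replicate 2, to -0.03 without formaldehyde replicate 2 and to values just under 0 after rescaling to equal FPKM sums (-0.0024) or quantile normalization (-0.0044). HMGA1, a protein of AT-rich DNA that competes with linker histones, stood at 374 and 222 FPKM with formaldehyde, against 103 and 92.3 FPKM untreated. Its groups lay apart, and the log2 fold change was 1.55 with an SE of 0.32 (limma adjusted p = 0.9999). HMGA2, its relative, stood at 11.6 and 1.56 FPKM with exposure, against 0.827 and 0.313 FPKM in untreated cells. HMGB2, a DNA-bending protein abundant in dividing cells, stood at 131 and 246 FPKM with exposure, against 304 and 282 FPKM in untreated cells. The high mobility group genes were thus mixed. Of the others listed, HMGB1 (-0.17), HMGB3 (-0.26), HMGN2 (-0.41), HMGN3 (-0.49) and HMGN5 (-0.21) were lower, and HMGN1 (0.01) and HMGN4 (0.16) higher.

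Among 17 genes that act with linker histones in compact chromatin, 11 were lower and 6 higher, beside 44.9% lower over all genes tested. The median log2 fold change was -0.07 (0.03 without formaldehyde replicate 1), with 0 past limma or at an unadjusted p under 0.05. DNMT3B, a DNA methyltransferase, stood at 3.11 and 4.58 FPKM with formaldehyde, against 4.87 and 6.57 FPKM untreated. EZH2, the methyltransferase of lysine 27 of histone H3, stood at 28.0 and 36.0 FPKM with exposure, against 37.2 and 39.4 FPKM in untreated cells. SUV39H1, a methyltransferase of lysine 9, stood at 13.3 and 14.5 FPKM with exposure, against 17.3 and 14.5 FPKM in untreated cells.

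**Figure D5:**
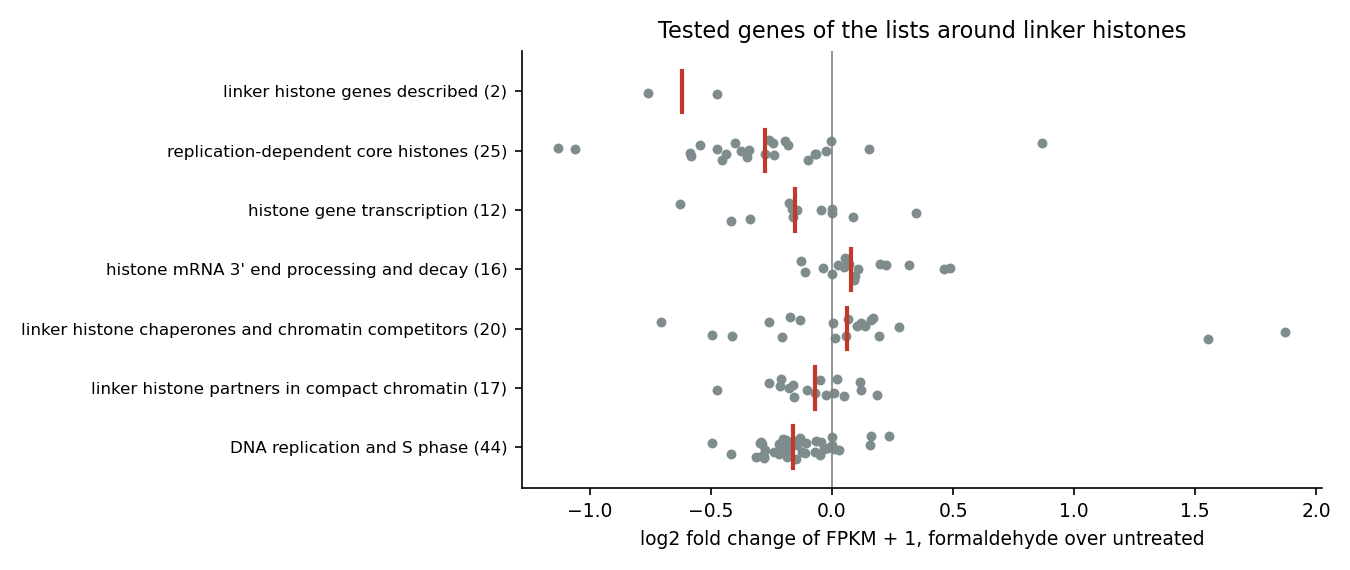
Log2 fold change of FPKM + 1, formaldehyde over untreated (horizontal axis), of each tested gene (grey points) in the lists named at the left, with the number tested in brackets and the median of each list as a red bar. The median of the 2 linker histone genes tested is -0.62 and that of histone mRNA processing and decay 0.08, and HMGA1 (1.55) and HMGA2 (1.87) stand farthest to the right.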

How the data were processed

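RNA of 4 libraries, 2 with formaldehyde and 2 untreated, was analysed from transcript files that the authors deposited, 1 per library. Per the file headers and attributes their values are FPKM from Cufflinks with a confidence interval and a coverage; per the submitters' processing notes, Cufflinks 2.0.2, STAR 2.5.2 and FastQC 0.10.0 were used, on hg19 (GRCh37). How trimming, strand and multi-mapping were handled is not stated in those notes or the labels. FPKM were summed over the transcripts of each of 23004 gene names; 894 of 40255 transcripts had no name and were left out (1.07% to 1.31% of FPKM). Other columns were not used.

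The deposited upper bound equals FPKM times 1 plus 2 over the square root of the fragment number, which gave each member's fragments. The rise of fragments per unit of coverage with transcript length yielded a 51 nt read. The median ratio of coverage to FPKM, with that read length, then yielded the depths. Genes with a mean of at least 1 FPKM (12407) were fitted on log2(FPKM + 1), which understates changes of low genes, with limma 3.58.1 in R 4.3.3 (two-sided, mean trend, without covariates), and p-values were adjusted over these genes by Benjamini and Hochberg. Single values were compared with exact permutation tests in SciPy 1.17.1. Figures used matplotlib 3.10.9 and Python 3.11.15, and alignments Biopython 1.88.

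The members and lists were chosen with earlier results of these data known. The named genes are the members and, of each list, up to 3 tested genes with the largest absolute moderated t; 1 member and some list genes are not reported here, and counts over the lists other than the members include every listed gene. Alternatives were the pseudocount (0.1), the filter (none, or 5 FPKM), 3 scalings, the highest transcript, genes of at least 300 nt, no trend, a replicate block and each library left out.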

Additional observations from a re-analysis of the deposited data

How the results depend on the processing

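The adjusted p of HIST1H1C and H1FX stayed above the threshold under each of 14 alternatives, and the number of linker histone genes called was 0 throughout. The log2 fold change of HIST1H1C was negative in all 14, from -1.01 to -0.51. Its formaldehyde libraries both lay below both untreated ones, so leaving 1 library out could not turn this sign. The filter, length, trend and block settings left the estimate at -0.76, so the shared sign is no separate evidence. With 1 library left out, the value ran from -1.05 to 0.10 for H1FX, above 0 without formaldehyde replicate 1, and from -0.88 to -0.36 for the median of both genes; with no filter the median over 5 genes was -0.25. In such a fit the lone library of its group is assumed to vary like the other group. Linker histone genes with groups that do not overlap numbered 1 to 2 with a library left out and 3 with no filter, where HIST1H1B and HIST1H1D enter. All of these were lower with formaldehyde. Among all genes tested, 19.2% to 34.7% lay apart and lower with a library left out, and 29.7% to 47.0% apart and higher. With no filter these shares were 11.8% and 14.4%. Genes called over all genes numbered 19, against 0 with no filter (652 at an unadjusted p under 0.05), 1 with genes of at least 300 nt, 29 with the replicate block and 31 to 55 with a library left out (31 without untreated replicate 2, 44 without formaldehyde replicate 1, 55 without either of the others); the cause was not tested beyond the change in genes or libraries. The deviations of libraries with the same replicate number correlated at 0.253 over genes; the labels do not say whether a number marks a shared culture or day, 2 pairs are too few to settle it, and with the replicate block the adjusted p of HIST1H1C was 0.533 (log2 fold change -0.76).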
